A study of Homo sapiens with 2 samples.

Results

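The phase II conjugation enzymes were the rows whose symbols begin with UGT1A, UGT2A, UGT2B or UGT3A, with SULT and a digit, with GSTA, GSTK, GSTM, GSTO, GSTP, GSTT or GSTZ and a digit, or with MGST and a digit. The rule found 54 of the 19927 gene rows. They were 21 UDP-glycosyltransferases (UGTs), 13 cytosolic sulfotransferases (SULTs), 17 soluble glutathione S-transferases (GSTs) and 3 microsomal glutathione transferases (MGSTs). Of these 54 rows, 29 reached 1 CPM, reads scaled to library size, in at least 1 library and were kept, among 12540 kept genes in all. Messenger RNA was sequenced from Huh7, an established human hepatocellular carcinoma line grown in serum-supplemented DMEM. The knockdown group was 1 library of cells with the hairpin shPPIL1#1 against PPIL1, a cyclophilin of the activated spliceosome, called shPPIL1 here. The control group was 1 library of cells with a control hairpin, called shControl, whose genotype label reads WT. The labels name 1 hairpin against the target, and no clone, time after knockdown or drug treatment is named.

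Conjugation enzymes attach a polar group to drugs, bilirubin, bile acids, steroids and reactive electrophiles, which makes these compounds easier to excrete in bile or urine. UGT1A and UGT2 enzymes sit in the endoplasmic reticulum and mainly use UDP-glucuronic acid. SULTs work in the cytosol with the sulfate donor PAPS, and GSTs use the tripeptide glutathione. The liver is the main site of all of these reactions, and hepatoma lines are known to keep only part of the hepatocyte set. In bulk cultures, fewer cells that express a gene and less RNA per cell cannot be told apart.

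The reads were counted per gene, and several conjugation genes share sequence, so the stretches that decide what a row can measure are shown first. The UGT1A genes on chromosome 2 each join a first exon of their own to a common set of 4 downstream exons. The last 15 bases of the first exon are printed in lower case and the first 15 bases of the common second exon in capitals (GENCODE 29, GRCh38, plus strand, 5′ to 3′). The second exon begins at chr2:233767034-233767048 in each case, and the first exons end at chr2:233761137-233761151 for UGT1A1, chr2:233693851-233693865 for UGT1A6, chr2:233719673-233719687 for UGT1A4 and chr2:233672775-233672789 for UGT1A9.
UGT1A1: aatccactatcccagGAATTTGAAGCCTAC
UGT1A6: aaagacttgtctcagGAATTTGAAGCCTAC
UGT1A4: aagccactatctcagGAATTTGAAGCCTAC
UGT1A9: aagccgttgcctatgGAATTTGAAGCCTAC

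The common part was 1478 or 1479 bases in these 4 transcripts, against first exons of 904, 1000, 910 and 937 bases. Cut into 100-base windows, between 33.1% and 75.8% of the longest coding transcript of each of the 9 UGT1A rows matched another gene exactly. A read from the common exons therefore fits every UGT1A row, and the sources used here do not say how such reads were treated.

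The SULT1A genes on chromosome 16 are the other close set. Coding bases 208 to 267 are printed for 4 of them, with capitals where a gene differs from SULT1A3 (GENCODE 29, GRCh38). They lie at chr16:30201040-30201099 for SULT1A3 and chr16:29461697-29461756 for SULT1A4 on the plus strand, and at chr16:28608485-28608544 for SULT1A1 and chr16:28595557-28595616 for SULT1A2 on the minus strand. The stretch was chosen as that with the most differences between SULT1A1 and SULT1A3.
SULT1A3: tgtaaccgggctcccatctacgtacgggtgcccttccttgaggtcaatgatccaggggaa
SULT1A4: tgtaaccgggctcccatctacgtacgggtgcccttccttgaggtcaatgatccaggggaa
SULT1A1: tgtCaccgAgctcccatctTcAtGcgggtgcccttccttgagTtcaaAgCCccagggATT
SULT1A2: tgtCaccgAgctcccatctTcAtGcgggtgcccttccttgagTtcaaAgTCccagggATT

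SULT1A3 and SULT1A4 did not differ at any of their 885 coding bases, so their rows cannot be separated by coding reads. SULT1A1 differed from SULT1A3 at 49 coding bases and from SULT1A2 at 28. GSTA1 and GSTA2 were identical at 96.7% of 666 coding bases, UGT2B15 and UGT2B17 at 96.5% of 1590, and GSTM1 and GSTM2 at 89.9% of 654. In all, 16 of the 54 rows shared at least 20% of their windows with another gene, among them 5 of the 29 kept rows (GSTM1, GSTM2, UGT1A1, UGT1A6 and SULT1A3).

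Each library held a similar number of counted reads, 41165401 in shPPIL1 and 41015345 in shControl. PPIL1 itself had 104 reads in shPPIL1 and 1505 in shControl, 6.79% of the control level (95% counting interval 5.51 to 8.29%). All 8 hepatocyte markers were present, with a summed level of 6698 FPKM in shPPIL1 and 6331 FPKM in shControl. Of these 8, 7 were higher in shPPIL1 with an interval excluding 1, beside 24.6% of all kept genes. Their log2 ratios ran from 0.01 to 0.23 (median 0.09), and at such depth an interval can exclude 1 at a very small ratio. The hepatoma markers AFP and GPC3 summed to 4952 FPKM in shPPIL1 and 4875 FPKM in shControl. Of 5 cholangiocyte markers, KRT7 had 0 reads in both libraries, EPCAM was higher (1.05, 1.03 to 1.07), and SOX9 (0.830, 0.804 to 0.856) and KRT19 (0.907, 0.878 to 0.937) were lower, with a sum of 500.4 FPKM in shPPIL1 and 499.5 FPKM in shControl. Of 6 fibroblast markers, COL1A2 had 0 reads in both, COL3A1 was higher with 48 reads in shPPIL1 and 16 in shControl (2.95, 1.64 to 5.56), and LUM had the most reads, 1508 in shPPIL1 and 1512 in shControl. The fibroblast sum was 16.24 FPKM in shPPIL1 and 16.02 FPKM in shControl. Of 3 endothelial markers, PECAM1 was lower with 352 reads in shPPIL1 and 410 in shControl (0.843, 0.729 to 0.975), and VWF had 0 in shPPIL1 and 4 in shControl, with a sum of 1.34 FPKM in shPPIL1 and 1.58 FPKM in shControl. Of 4 immune markers, LYZ (0.798, 0.778 to 0.819) and CD68 (0.921, 0.852 to 0.995) were lower. PTPRC had 10 reads in shPPIL1 and 4 in shControl, and CD3E had 2 in shPPIL1 and 1 in shControl. The immune sum was 199.1 FPKM in shPPIL1 and 242.9 FPKM in shControl. LYZ alone held 180.8 FPKM of it in shPPIL1 and 223.4 FPKM in shControl. The part of all these markers in the results was not tested.

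Levels are given as FPKM, the authors' reads scaled to gene length and to library size. Ratios are shPPIL1 over shControl on TMM-scaled reads, with an exact 95% interval that covers counting error only. With 1 library per group there is no replicate check and no test between conditions, and "higher" or "lower" is written of a gene whose interval excluded 1. At equal counts of 100 the interval reached 1.33-fold, and at 10000 it reached 1.03-fold.

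Transcripts of glutathione transferases dominated the set. GSTP1, the pi-class enzyme known to be low in normal hepatocytes and abundant in many tumours, had 2109 FPKM and rank 13 among all gene rows in shPPIL1, and 1997 FPKM and rank 15 in shControl. It alone made up 63.6% of the summed FPKM of the conjugation enzymes in shPPIL1 and 63.7% in shControl. GSTO1, an omega-class enzyme that reduces dehydroascorbate and arsenic species, followed with 407 FPKM in shPPIL1 and 372 FPKM in shControl. Of the membrane enzymes, MGST1 had 233.8 FPKM in shPPIL1 and 233.9 FPKM in shControl, and MGST3 had 161.7 FPKM in shPPIL1 and 152.0 FPKM in shControl. GSTK1, the mitochondrial and peroxisomal kappa-class enzyme, had 83.9 FPKM in shPPIL1 and 79.6 FPKM in shControl, and MGST2, which can make leukotriene C4, had 76.5 FPKM in shPPIL1 and 73.6 FPKM in shControl. These 6 rows together held 92.7% of the conjugation enzymes' FPKM in each library.

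**Figure D1:**
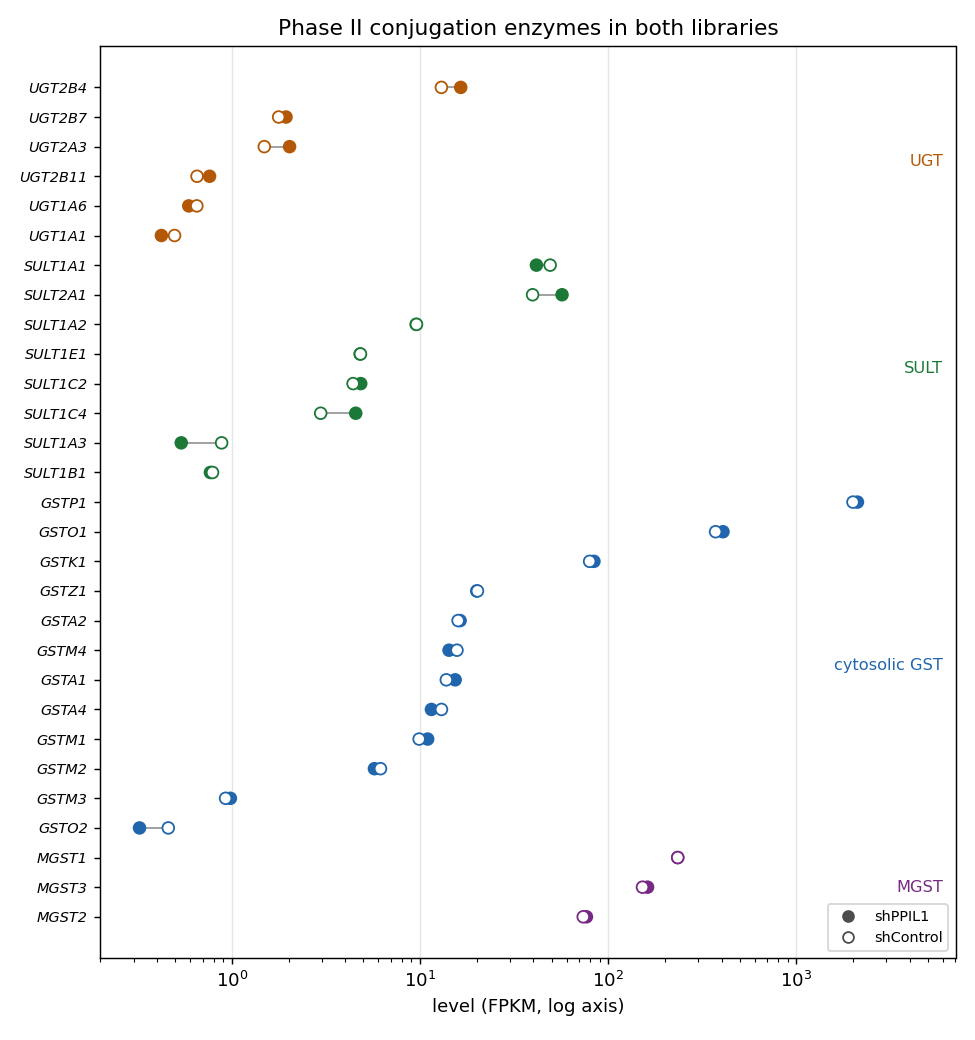
Level of the 29 kept conjugation enzymes in FPKM on a log axis, with filled points for shPPIL1 and open points for shControl, 1 library each, ordered within each class by the control level. GSTP1 stands at 2109 and 1997 FPKM, and the UGT1A rows stand under 1 FPKM in both libraries.

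By class, soluble GSTs summed to 2695 FPKM in shPPIL1 and 2544 FPKM in shControl, which is 81.3% of all conjugation enzymes in shPPIL1 and 81.1% in shControl. MGSTs summed to 472 FPKM in shPPIL1 and 460 FPKM in shControl, and SULTs to 124.3 FPKM in shPPIL1 and 113.0 FPKM in shControl. UGTs were the least abundant class, with 23.4 FPKM in shPPIL1 and 18.9 FPKM in shControl. The order of the classes was the same in both libraries.

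Most kept conjugation enzymes differed little between the libraries. By the counting interval, 7 of the 29 were higher in shPPIL1, 5 were lower and 17 spanned a ratio of 1. The same rule called 24.6% of all 12540 kept genes higher, 26.4% lower and 51.1% either way, so the members' shares of 24.1% and 17.2% lay at and below the background. At 1.5-fold or more, 1 member was higher and 1 was lower, beside 2.02%, 2.22% and, either way, 4.24% of all kept genes. At 2-fold or more no member was called (0 higher and 0 lower), beside 0.526%, 0.518% and 1.04% of all kept genes. The median log2 ratio of the members was 0.04, against 0.00 for all kept genes, and 79.3% of the members lay within 1.2-fold, against 78.7% of all kept genes. The other 25 members were under the filter, 7 of them with 0 reads in both libraries.

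**Figure D2:**
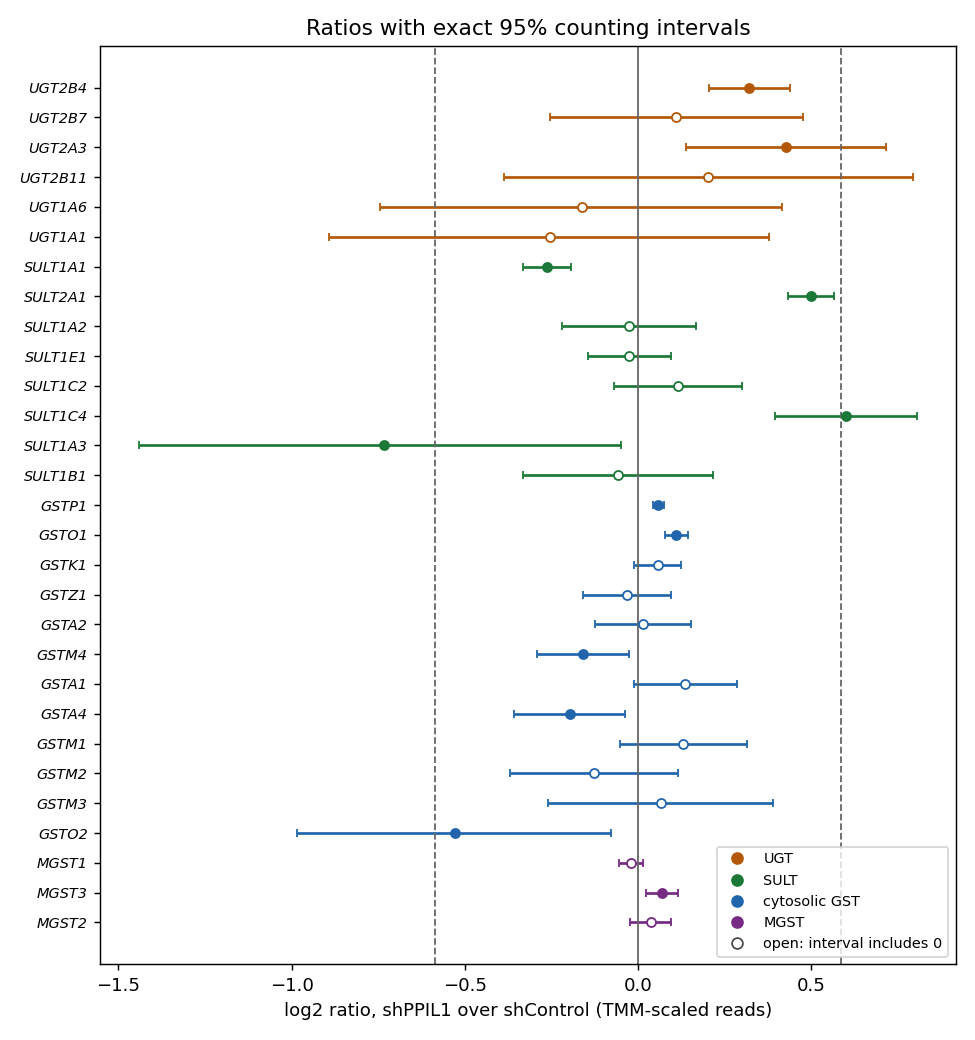
Log2 ratio of shPPIL1 over shControl for the 29 kept conjugation enzymes, with exact 95% counting intervals. Filled points have an interval that excludes 0, and dashed lines mark 1.5-fold, which SULT1C4 (0.60) and SULT1A3 (-0.73) pass.

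The sulfotransferases held the widest differences in both directions among kept members, with 2 of 8 kept rows higher, 2 lower and a median log2 ratio of -0.03. Over all kept genes, 24.6% were higher and 26.4% lower. SULT2A1, which sulfates dehydroepiandrosterone and bile acids, had 4451 reads (56.8 FPKM) in shPPIL1 and 3093 reads (39.6 FPKM) in shControl. It was 1.41-fold higher (1.35 to 1.48), the largest ratio among members with over 1000 reads in both libraries. SULT1A1, the main phenol sulfotransferase of liver, had 3118 reads (41.5 FPKM) in shPPIL1 and 3675 reads (49.1 FPKM) in shControl. It was lower, with a ratio of 0.834 (0.794 to 0.875). The order of these genes by FPKM was thus opposite in the libraries: SULT2A1 stood at 1.37 times the level of SULT1A1 in shPPIL1 and at 0.807 times its level in shControl. Together they made up 79.0% of SULT FPKM in shPPIL1 and 78.5% in shControl.

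SULT1C4, described as a largely fetal sulfotransferase, had 504 reads (4.55 FPKM) in shPPIL1 and 327 reads (2.96 FPKM) in shControl. It was 1.51-fold higher (1.31 to 1.75) and is the member past 1.5-fold in that direction, just beyond the threshold. Its neighbour SULT1C2 had 508 reads in shPPIL1 and 461 in shControl and a ratio of 1.08 whose interval of 0.953 to 1.23 includes 1. SULT1C3 had 13 reads in shPPIL1 and 7 in shControl, too few to separate the libraries (0.677 to 5.40). Summed, these 3 rows had 1025 reads in shPPIL1 and 795 in shControl, a ratio of 1.27 (1.15 to 1.39).

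SULT1A3, the sulfotransferase of dopamine and other catecholamines, was the member past 1.5-fold in the lower direction, with 30 reads in shPPIL1 and 49 in shControl and a ratio of 0.602 (0.369 to 0.967). Its copy SULT1A4, with the same coding sequence, had 30 reads in shPPIL1 and 32 in shControl. Their sum of 60 reads in shPPIL1 and 81 in shControl gave a ratio of 0.728 with an interval of 0.512 to 1.03, so no difference was detectable in the summed copies.

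The remaining kept sulfotransferases did not separate the libraries. SULT1E1, the oestrogen sulfotransferase, had 1127 reads in each library, and SULT1A2 had 443 in each. Equal counts gave both a ratio of 0.982 after scaling. SULT1B1, which acts on thyroid hormone, had 222 reads in shPPIL1 and 227 in shControl (0.961, 0.795 to 1.16). SULT2B1, a cholesterol sulfotransferase of skin, had 6 reads in shPPIL1 and 7 in shControl, and SULT6B1 had 0 in both. SULT4A1, a brain form, had 6 reads in shPPIL1 and 0 in shControl and was under the filter, with too few reads for a fold.

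UGTs had 2 of 6 kept rows higher and 0 lower, with a median log2 ratio of 0.16, and both higher rows were UGT2 genes. By the same interval, 24.6% of all kept genes were higher and 26.4% lower. UGT2B4, which acts on bile acids and was the most abundant UGT, had 1334 reads (16.4 FPKM) in shPPIL1 and 1049 reads (12.98 FPKM) in shControl, and was 1.25-fold higher (1.15 to 1.36). UGT2A3 had 238 reads (2.03 FPKM) in shPPIL1 and 174 reads (1.49 FPKM) in shControl, and was 1.34-fold higher (1.10 to 1.64). Neither row shared a 100-base window with another gene.

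UGT2B7, a glucuronosyltransferase of morphine and steroids, had 134 reads in shPPIL1 and 122 in shControl, a ratio of 1.08 (0.838 to 1.39), and UGT2B11 had 55 reads in shPPIL1 and 47 in shControl (1.15, 0.765 to 1.73). The androgen-conjugating UGT2B15 and UGT2B17 were under the filter, UGT2B15 with 37 reads in shPPIL1 and 23 in shControl, and UGT2B17 with 32 in shPPIL1 and 24 in shControl. UGT2B10 had 14 reads in shPPIL1 and 8 in shControl, and UGT2B28 had 4 in shPPIL1 and 3 in shControl. All 4 kept UGT2 rows had a ratio above 1, as did 6216 of the 12540 kept genes. The interval excluded 1 in 2 of the 4, both higher, beside 24.6% of all kept genes that were higher. The summed family had 1848 reads in shPPIL1 and 1450 in shControl, a ratio of 1.25 (1.17 to 1.34), and most of those reads were UGT2B4. UGT2A1 and UGT2A2, of olfactory tissue, had 0 reads in both libraries.

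UGT2 genes lie beside SULT1B1 and SULT1E1 on chromosome 4, from 68537173 to 69860145 (GRCh38). The SULT rows of that stretch had ratios of 0.961 and 0.982, with intervals including 1. The kept genes within 500 kb outside it were YTHDC1, a reader of methylated RNA (1.15, 1.11 to 1.18), and ODAM (1.29, 1.10 to 1.504). Both were higher, as were 24.6% of all kept genes. SULT2A1 lies on chromosome 19 from 47870467 to 47886315. Of 38 kept neighbours within 500 kb of the stretch that holds SULT2A1 and SULT2B1, 12 were higher and 5 lower, with a median log2 ratio of 0.05. Over all kept genes, 24.6% were higher and 26.4% lower. The stretch runs on to SULT2B1, so some of these neighbours lie more than 500 kb from SULT2A1. The most extreme was FUT1, lower with 2 reads in shPPIL1 and 42 in shControl (0.0468, 0.00549 to 0.180).

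UGT1A rows had few reads. UGT1A6, which acts on small phenols, had 50 reads (0.590 FPKM) in shPPIL1 and 55 reads (0.651 FPKM) in shControl (ratio 0.893, 0.597 to 1.33). UGT1A1, the bilirubin glucuronosyltransferase, had 41 reads (0.422 FPKM) in shPPIL1 and 48 reads (0.496 FPKM) in shControl (0.839, 0.539 to 1.30). The remaining 7 rows had 0 to 6 reads in shPPIL1 and 0 to 13 in shControl, and over all 9 rows the sums were 117 in shPPIL1 and 131 in shControl, a ratio of 0.877 (0.678 to 1.13). UGT1A9 had 2 reads in shPPIL1 and 13 in shControl, an interval of 0.0166 to 0.668 on very few reads and under the filter. The gene lengths implied by their FPKM values ran from 2060 to 2431 bases, longer than the first exons, which had at most 1000 bases. If these lengths take in common exons whose reads were left out, a level per length would be too low. UGT1A5 had 0 reads in both libraries, so no read of the common exons was counted in every row. Whether such reads were left out or assigned to single rows is not known. The UGT3A genes had 1 read in shPPIL1, on UGT3A2, and 0 in shControl.

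**Figure D3:**
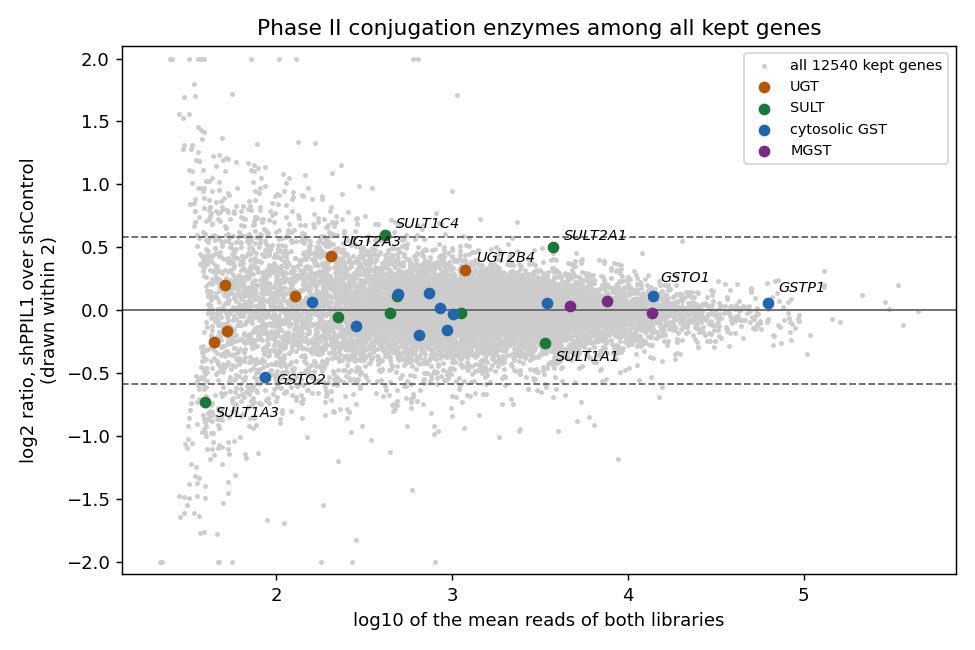
Log2 ratio of shPPIL1 over shControl against the log10 of the mean reads of both libraries, for all 12540 kept genes in grey and the 29 kept conjugation enzymes in colour, with ratios drawn within 2 and dashed lines at 1.5-fold. SULT2A1 (0.50) lies below the upper dashed line, and GSTP1 (0.06) lies close to 0.

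Most glutathione transferases differed by small factors, with 2 of 12 kept soluble GSTs higher, 3 lower and a median log2 ratio of 0.04. Among all kept genes, 24.6% were higher and 26.4% lower. GSTP1 had 64327 reads in shPPIL1 and 60683 in shControl, a ratio of 1.04 (1.03 to 1.05), and GSTO1 had 14491 reads in shPPIL1 and 13186 in shControl (1.08, 1.05 to 1.11). Both genes were higher by their intervals at this depth, while their log2 ratios of 0.06 and 0.11 sat inside the spread of all kept genes, whose middle 50% of log2 ratios ran from -0.13 to 0.12. GSTO2, the neighbour of GSTO1 on chromosome 10, had 72 reads in shPPIL1 and 102 in shControl and was lower (0.694, 0.506 to 0.947).

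Alpha-class genes, typical of hepatocytes, had no common direction. GSTA1 had 784 reads in shPPIL1 and 701 in shControl (1.10, 0.991 to 1.22), and GSTA2 had 865 reads in shPPIL1 and 841 in shControl (1.01, 0.918 to 1.11). GSTA4, which clears the lipid peroxidation product hydroxynonenal, had 607 reads in shPPIL1 and 684 in shControl and was lower (0.872, 0.780 to 0.974). GSTA3 had 0 reads in both libraries, and GSTA5 had 1 in shPPIL1 and 2 in shControl. The summed alpha class gave 2257 reads in shPPIL1 and 2228 in shControl, a ratio of 0.995 (0.938 to 1.06).

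Mu-class genes were also mixed. GSTM4 had 888 reads in shPPIL1 and 975 in shControl and was lower (0.895, 0.816 to 0.981). GSTM1, a gene that is deleted in many people and was expressed here, had 517 reads in shPPIL1 and 464 in shControl (1.09, 0.964 to 1.24), and GSTM2 had 274 reads in shPPIL1 and 294 in shControl (0.916, 0.774 to 1.08). GSTM1 shared 38.3% and GSTM2 40.9% of its windows with other mu-class genes. GSTM3 had 165 reads in shPPIL1 and 155 in shControl, and GSTM5 had 4 in shPPIL1 and 0 in shControl. The summed class gave a ratio of 0.962 (0.901 to 1.03).

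Among the other transferases, GSTZ1, the maleylacetoacetate isomerase of tyrosine breakdown, had 1010 reads in shPPIL1 and 1015 in shControl (0.978, 0.895 to 1.07). GSTK1 had 3568 reads in shPPIL1 and 3372 in shControl (1.04, 0.992 to 1.09). GSTT2B had 12 reads in shPPIL1 and 11 in shControl and GSTT4 0 in both. Of the 3 MGSTs, 1 was higher and 0 lower, beside 24.6% and 26.4% of all kept genes, with a median log2 ratio of 0.04. MGST3 had 7856 reads in shPPIL1 and 7355 in shControl and was 1.05-fold higher (1.02 to 1.08). MGST1 had 13745 reads in shPPIL1 and 13702 in shControl (0.986, 0.962 to 1.01), and MGST2 had 4783 reads in shPPIL1 and 4583 in shControl (1.03, 0.984 to 1.07).

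Promoter letters were read for 45 of the 54 genes, from the 250 bases before each listed RefSeq start (GRCh38.p14), on both strands. Some genes have several starts, and a gene was counted when any of them had a match. The shares of all promoters count each promoter singly, so gene counts and these shares have unlike units and show no enrichment. GTTAAT, the core of sites for the liver factor HNF1, stood in 10 of the 45 genes and in 6.23% of all 35116 promoters. The 6 kept genes with it are printed as 30 bases with the first match in capitals, read as ATTAAC on the gene's strand. Each is from the first listed start with a match, which for UGT1A6 and MGST1 lies inside the gene's outer bounds. They lie at chr2:233760192-233760221 (plus) for UGT1A1, chr2:233692803-233692832 (plus) for UGT1A6, chr4:69860232-69860261 (minus) for SULT1E1, chr6:52803979-52804008 (minus) for GSTA1, chr6:52763638-52763667 (minus) for GSTA2 and chr12:16347577-16347606 (plus) for MGST1.
UGT1A1: acacagtcaaacATTAACttggtgtatcga
UGT1A6: tagttggttcatATTAACcatgtgattaaa
SULT1E1: atttacatctacATTAACtattgcatcatg
GSTA1: gaaaaggaacacATTAACcagtgtcttctg
GSTA2: gaaaaggaacatATTAACcagtgtcttctg
MGST1: gtgggagggctaATTAACaggagattaact

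None of these 6 genes had an interval that excluded 1, with ratios between 0.839 and 1.10. Over all kept genes, 51.1% had such an interval. A match describes letters and is not a bound site.

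Promoter matches are also printed for genes picked by their values, the most abundant member and the member higher by 1.5-fold or more. A link between these matches and level or ratio was not tested. GSTP1 was the only one of the 45 with TGACTCA, the AP-1 site, which overlaps TGACNNNGC, the core of antioxidant response elements. TGACTCA stood in 4.20% of all promoters and TGACNNNGC in 10.9%, and in 10 of the 45 genes. SULT1C4 was the only one with TGACGTCA, the cyclic AMP response element, which stood in 1.65% of all promoters. A match in 1 of 45 genes and a share of single promoters have unlike units, so no enrichment can be read from them. The SULT1C4 promoter also held TATAAA. The GSTP1 site and the TGACGTCA of SULT1C4 are printed as 30 bases with the match in capitals, from chr11:67583735-67583764 (plus) and chr2:108377896-108377925 (plus).
GSTP1: ggccggcgccgTGACTCAGCactggggcgg
SULT1C4: cgcctctgctgTGACGTCAcagcctggtga

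Further, TATAAA stood in 13 of the 45 genes (10.7% of all promoters) and GCGTG, the core of xenobiotic response elements, in 12 (32.2%). SULT2A1 held none of these 6 motifs in its 250 bases, which says nothing of the factors that act on it.

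Related genes were counted by list. The shares to set beside each count below are those of all kept genes, 24.6% higher and 26.4% lower by the same interval. At 1.5-fold or more, 4.24% of all kept genes were called either way. Of 12 kept genes of PAPS supply and sulfate cleavage, 5 were higher and 1 lower, with a median log2 ratio of 0.08, and 0 reached 1.5-fold. The Golgi PAPS transporter SLC35B2 had 1783 reads in shPPIL1 and 1441 in shControl and was 1.22-fold higher (1.13 to 1.30). PAPSS2, a PAPS synthase, had 6879 reads in shPPIL1 and 6070 in shControl (1.11, 1.08 to 1.15), and the sulfate transporter SLC26A2 had 1836 reads in shPPIL1 and 1571 in shControl (1.15, 1.07 to 1.23). BPNT2, a Golgi phosphatase of the PAP by-product, was lower with 6179 reads in shPPIL1 and 7142 in shControl (0.850, 0.821 to 0.880).

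Genes of UDP-glucuronic acid supply and glucuronide cleavage had 2 of 10 kept members higher and 3 lower, with a median log2 ratio of -0.01. UGDH, which makes UDP-glucuronic acid, had 14210 reads in shPPIL1 and 16144 in shControl and was lower (0.865, 0.845 to 0.885). The phosphoglucomutases PGM1 and PGM2 were lower as well, at 0.797 (0.763 to 0.832) and 0.874 (0.830 to 0.921). The lysosomal glucuronidase GUSB was higher (1.08, 1.04 to 1.12), as was UGP2, the UDP-glucose pyrophosphorylase (1.04, 1.01 to 1.07).

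Glutathione synthesis and turnover genes had 2 of 17 kept members higher and 7 lower, with a median log2 ratio of -0.09. CTH, the cystathionine gamma-lyase that makes cysteine, had 444 reads in shPPIL1 and 722 in shControl (0.604, 0.536 to 0.681) and was the 1 gene of the list past 1.5-fold. CHAC1, which degrades glutathione, had 761 reads in shPPIL1 and 1100 in shControl (0.680, 0.619 to 0.746), and the cystine transporter SLC7A11 4658 reads in shPPIL1 and 5819 in shControl (0.786, 0.757 to 0.817). The peptidase ANPEP was higher (1.13, 1.10 to 1.15), as was the cyclotransferase GGCT (1.07, 1.004 to 1.13). The synthetic enzymes GCLC and GSS had ratios of 0.986 and 0.991 with intervals including 1.

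Other conjugating transferases had 7 of 16 kept members higher and 3 lower, with a median log2 ratio of 0.09. BAAT, which joins bile acids to taurine and glycine, had 389 reads in shPPIL1 and 276 in shControl and was 1.38-fold higher (1.18 to 1.62). UGT8, the ceramide galactosyltransferase, had 1447 reads in shPPIL1 and 1164 in shControl (1.22, 1.13 to 1.32), and the arylamine acetyltransferase NAT2 2217 reads in shPPIL1 and 1827 in shControl (1.19, 1.12 to 1.27). NNMT, the nicotinamide methyltransferase, had 182 reads in shPPIL1 and 350 in shControl and was lower (0.511, 0.425 to 0.613), the 1 gene of the list past 1.5-fold. GLYATL1 and ACSM3 were lower too, at 0.881 (0.795 to 0.976) and 0.862 (0.751 to 0.988).

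Transcription factors that sense drugs or set liver expression had 7 of 23 kept members higher and 9 lower, with a median log2 ratio of -0.07. AHR, the aryl hydrocarbon receptor, had 4475 reads in shPPIL1 and 6039 in shControl (0.728, 0.700 to 0.757). NR0B2, the bile acid-induced repressor, had 606 reads in shPPIL1 and 797 in shControl (0.747, 0.671 to 0.831), and NR1I2, the pregnane X receptor, 297 reads in shPPIL1 and 374 in shControl (0.780, 0.668 to 0.911). RXRA, the partner of NR1I2 and other nuclear receptors, was higher with 3205 reads in shPPIL1 and 2556 in shControl (1.23, 1.17 to 1.30), as were FOXA1 (1.17, 1.12 to 1.22) and ARNT, the partner of AHR (1.16, 1.10 to 1.21). Whether these differences bear on the conjugation genes was not tested.

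**Figure D4:**
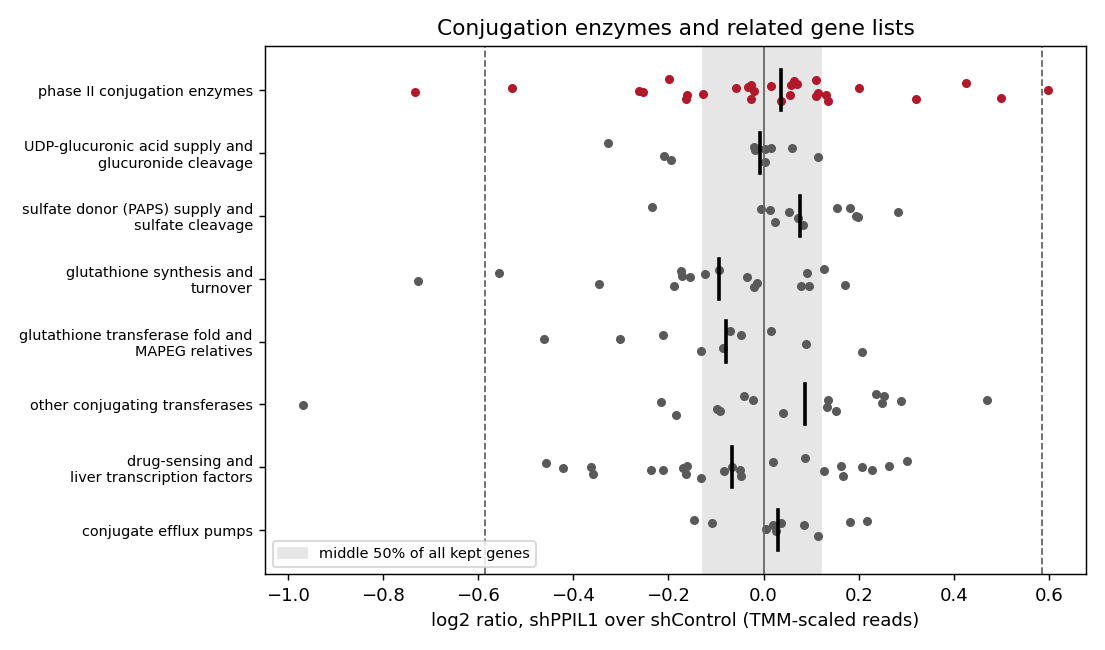
Log2 ratio of shPPIL1 over shControl for the kept conjugation enzymes (red) and for 7 related gene lists (grey points), with black bars at the medians, a band for the middle 50% of all kept genes and dashed lines at 1.5-fold. Every median lies inside the band, from -0.09 for glutathione synthesis and turnover to 0.09 for the other conjugating transferases.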

How the data were processed

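Polyadenylated RNA of Huh7 cells was sequenced, 1 library each for shPPIL1 and shControl, per the labels' protocols. The authors deposited a table of unnormalized counts for each gene, and FPKM values for each library. The genome build is hg38, per the submitters' processing notes. No source used here gives the aligner, counter, annotation or strand setting. Columns were tied to libraries by the names in the labels, and 7 further count columns that match no label were not used. Dividing each count by library total and by the deposited FPKM gave whole gene lengths, within 0.001 bases, for 99.9% of genes in each library.

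Library sizes were multiplied by TMM factors of 1.01 for shPPIL1 and 0.993 for shControl (edgeR 4.0.16 under R 4.3.3), and genes at 1 CPM or more in at least 1 library were kept. Ratios carry exact 95% Clopper-Pearson intervals for counting error. PCR reads without molecular identifiers are not independent molecules. A library at 0 was set to a floor of 3 reads. Sharing was measured in 100-base windows every 10 bases, against GENCODE 29 transcripts. Alternatives were library totals, DESeq2 1.42.0 size factors, other filters and folds, and FPKM + 1. The steps were tested on simulated data. The members, gene lists and thresholds were chosen with earlier results of these data known. Named genes are the members, PPIL1 and, per related list, up to 3 genes per direction, ranked by the bound nearest to a ratio of 1. Names outside this rule (GCLC, GSS, ABCC2, HPGDS, PTGES, AFP, KRT7, COL1A2, LUM, VWF, PTPRC, CD3E and the neighbouring genes) were chosen after values were seen.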

Additional observations from a re-analysis of the deposited data

How the results depend on the processing

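No paired analysis was possible because each group had 1 library, and for the same reason no library could be left out. The counts of members past 1.5-fold rest on 1 gene in each direction. They were 2 higher and 2 lower with no filter on low reads, which added SULT4A1 and UGT1A9, 0 and 0 at 2-fold or with FPKM + 1, and 7 and 5 at any fold. At 5 CPM or more, and without members that share sequence (chosen after seeing the data), 1 was higher and 0 lower. Over all genes the counts of 253 higher and 279 lower became 66 and 101 at 5 CPM, 576 and 548 without a filter, 36 and 59 with FPKM + 1, 66 and 65 at 2-fold, and 3087 and 3316 at any fold. The lower counts at 5 CPM and at 2-fold follow from the stricter rule. Library totals in place of TMM factors gave 9 higher and 5 lower members at any fold, against 7 and 5. The median log2 ratio of the members ran from 0.01 (the mean in place of the median) to 0.06 (no filter). Of 87 recomputed member ratios, 85 stayed within their counting interval and 0 reversed. The exceptions were GSTP1 with library totals and with FPKM + 1, both 1.06 in place of 1.04. Depth limits the UGT1A, UGT2B11, GSTO2 and SULT1A3 values most.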

Other observations

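Genes next to the conjugation step differed by small factors too. Of 10 kept efflux pumps and transporters of conjugates, 4 were higher and 2 lower, with a median log2 ratio of 0.03. The shares over all kept genes were 24.6% higher and 26.4% lower. ABCC1, ABCC5 and ABCB1 were higher, at 1.16 (1.08 to 1.25), 1.13 (1.07 to 1.21) and 1.08 (1.06 to 1.10). ABCC4 and ABCG2 were lower, at 0.903 (0.848 to 0.961) and 0.928 (0.903 to 0.953). ABCC2, the canalicular export pump of glucuronides and glutathione conjugates, had 9037 reads in shPPIL1 and 8841 in shControl (1.00, 0.975 to 1.03).

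Relatives of the glutathione transferases by fold or membrane family had 2 of 10 kept members higher and 5 lower, with a median log2 ratio of -0.08. Here too the all-gene shares were 24.6% higher and 26.4% lower. PTGES2, a prostaglandin E synthase, had 2565 reads in shPPIL1 and 3105 in shControl (0.812, 0.770 to 0.855), the chloride channel protein CLIC4 6284 reads in shPPIL1 and 7151 in shControl (0.863, 0.834 to 0.893), and the valyl-tRNA synthetase VARS1 3274 reads in shPPIL1 and 3524 in shControl (0.913, 0.870 to 0.958). GDAP1 (1.15, 1.02 to 1.31) and the elongation factor subunit EEF1G (1.06, 1.05 to 1.08) were higher. HPGDS and PTGES had 0 reads in both libraries.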
